A study of Rattus norvegicus with 71 samples.

Results

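The genes described here are 60 genes of DNA replication and cell division, chosen by name, in rat primary cortical cultures exposed to 6 compounds. A gene was taken when its symbol in the deposited count table equalled a listed name. Of the 60 names, 58 had a row among the 19771 genes of the table, and all 58 passed the filter on low counts, which kept 15343 genes. No row was matched to E2f1 or Ccnb2, so these are not analysed here. By textbook role, 20 names were assigned to S phase (19 tested), 37 to mitosis (36 tested) and 3 to the D-type cyclins (3 tested).

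The cultures were rat cortical cells on multi-well microelectrode arrays, plates that record the electrical activity of a neural network. Compounds were given from 2 h after plating and given anew on days 5, 7 and 9 in vitro, with RNA taken on day 12. The groups were cytosine arabinoside (0.1, 0.3 and 1 µM), 5-fluorouracil (0.1, 0.3 and 1 µM), haloperidol (0.3, 1 and 3 µM), domoic acid (0.1, 0.3 and 1 µM), deltamethrin (0.3, 1, 3 and 10 µM) and cypermethrin (1, 3 and 10 µM), each set against vehicle libraries (0 µM) of its own compound. Of the 25 groups, 22 held 3 libraries, 0 µM of 5-fluorouracil and of cypermethrin held 2, and deltamethrin 0.3 µM held 1, giving 71 libraries. The titles carry the codes GRC321 (24 libraries) and GRC327 (47 libraries), called projects here, and 5-fluorouracil had no 0 µM library in GRC321. For each library 2 to 3 wells were pooled. The wells came from 2 cultures, but the labels do not say which library came from which, so the p-values reflect only the spread among these libraries, which may be technical. Strain, sex and age of the animals are not given in the sources used here.

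A dividing cell copies its genome in S phase and separates the copies in mitosis. D-type cyclins, with Cdk4 and Cdk6, release E2F factors in G1. These factors drive genes for origin licensing (the MCM helicase and its loaders) and for the replication fork. Later, MuvB complexes with B-MYB and FOXM1 drive the genes of spindle, kinetochore and cytokinesis. Neurons leave the cell cycle before they mature, whereas oligodendrocyte precursors, astrocytes and progenitors in a cortical culture can divide. Cytosine arabinoside is a cytidine analog with an arabinose sugar that is built into DNA and stops the polymerase, and it is used to remove dividing cells from neuronal cultures. 5-Fluorouracil is a fluorinated base whose products block thymidylate synthesis and enter RNA and DNA. Deltamethrin and cypermethrin are pyrethroids that act on sodium channels, domoic acid is a glutamate receptor agonist, and haloperidol is a dopamine receptor antagonist.

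Library totals lay between 5.2 M and 43.1 M counts (median 10.2 M). The tissue label names cortical neurons. The 10 pan-neuronal markers summed to 9049 to 12914 CPM (counts scaled to library size) in the 16 vehicle libraries, and every one of them had counts in all 71 libraries. The cultures also held RNA of cells that can divide. In the vehicle libraries 8 astrocyte markers summed to 2134 to 3314 CPM and 7 oligodendrocyte precursor markers to 741 to 1035 CPM. Microglial markers summed to at most 1.19 CPM there.

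The promoters of the members differed by class in the motifs they held, and those of Mcm6, Top2a, Prc1 and Mki67 are shown as examples, picked among well expressed members whose promoter held the motif of their class (E2F for S phase, CHR with CCAAT for mitosis). RefSeq promoter windows (build GRCr8, 250 bases before to 50 after the annotated start) were matched by symbol to 46 of the 58 members, 15 of S phase, 30 mitotic and 1 D cyclin. A gene with several windows was counted once, and held a motif if any of its windows did. An E2F motif was TTCGCGC or TTGGCGC on either strand. It stood in windows of 9 of the 15 S-phase members (60.0%) and 3 of the 30 mitotic members (10.0%). Over all 27457 genes with a window the share was 4.12%. A cell cycle homology region (CHR) was TTTGAA on either strand. It stood in windows of 21 of 30 mitotic members (70.0%) and 1 of 15 S-phase members (6.67%), against 19.4% of all these genes. A CHR together with CCAAT, the box bound by NF-Y, stood in windows of 15 of 30 mitotic members and no S-phase member, against 7.96% of all. The CCAAT box alone did not separate the classes, with 11 S-phase (73.3%) and 19 mitotic members (63.3%), against 39.6% of all. In the 250 bases before the start alone, E2F stood in 7 S-phase (46.7%) and 3 mitotic members (10.0%), against 3.28% of all. A CHR stood there in 11 mitotic members (36.7%) and 1 S-phase member (6.67%), against 17.2% of all. A CHR with CCAAT stood there in 10 mitotic members (33.3%) and no S-phase member, against 6.32% of all. The motifs are matches of letters, and no binding was measured. Below, the 250 bases before the start are printed 5′ to 3′ on the strand of the gene, with every E2F, CHR and CCAAT motif in capitals. The examples are not clean cases, since Mki67 also holds an E2F motif and Mcm6 also holds CCAAT boxes.
Mcm6: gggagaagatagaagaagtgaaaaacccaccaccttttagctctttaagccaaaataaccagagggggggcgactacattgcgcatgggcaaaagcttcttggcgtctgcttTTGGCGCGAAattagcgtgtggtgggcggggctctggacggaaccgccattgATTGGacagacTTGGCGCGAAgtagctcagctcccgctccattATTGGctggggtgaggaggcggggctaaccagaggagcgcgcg
Top2a: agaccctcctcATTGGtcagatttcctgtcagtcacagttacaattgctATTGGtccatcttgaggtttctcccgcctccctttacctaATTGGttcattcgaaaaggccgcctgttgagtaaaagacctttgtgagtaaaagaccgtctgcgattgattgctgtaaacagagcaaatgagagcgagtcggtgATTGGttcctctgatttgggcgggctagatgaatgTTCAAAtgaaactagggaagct
Prc1: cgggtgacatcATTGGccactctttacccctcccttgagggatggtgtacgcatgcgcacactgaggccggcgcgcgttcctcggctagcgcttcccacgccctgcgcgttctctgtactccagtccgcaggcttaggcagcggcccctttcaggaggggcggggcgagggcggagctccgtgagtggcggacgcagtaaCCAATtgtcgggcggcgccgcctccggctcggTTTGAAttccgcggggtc
Mki67: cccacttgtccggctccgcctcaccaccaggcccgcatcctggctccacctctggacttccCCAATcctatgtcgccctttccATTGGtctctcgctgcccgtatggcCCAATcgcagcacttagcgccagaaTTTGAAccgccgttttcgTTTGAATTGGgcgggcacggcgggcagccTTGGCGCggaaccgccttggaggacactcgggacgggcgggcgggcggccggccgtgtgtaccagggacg
The Mcm6 sequence, at chr13:42404353-42404602 on the minus strand, holds the E2F motif at 138 and at 75 bases before the start, each read on both strands with an overlap, and 2 CCAAT boxes that begin 86 and 43 bases before the start. The Top2a sequence, at chr10:84473094-84473343 on the minus strand, has a CHR that begins 22 bases before the start and 4 CCAAT boxes. The Prc1 sequence, at chr1:143659231-143659480 on the plus strand, has a CHR that begins 18 bases before the start and 2 CCAAT boxes. The Mki67 sequence, at chr1:199952594-199952843 on the minus strand, has CHRs that begin 117 and 99 bases before the start and 4 CCAAT boxes, one of which shares a base with a CHR, and an E2F motif that begins 70 bases before the start.

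Across the 19 comparisons, members passed the test under cytosine arabinoside at each concentration and under 5-fluorouracil at 1 µM, and in none of the other 15. The summed level of the 36 mitotic members was 85.5, 90.5 and 85.6 CPM in the 3 libraries at 1 µM cytosine arabinoside, against 578, 675 and 625 CPM at 0 µM. The summed level of the 19 S-phase members was 290, 204 and 216 CPM at 1 µM, against 431, 358 and 394 CPM at 0 µM. For both sums the treated libraries lay below all 3 vehicle libraries, and the mean at 1 µM was 13.9% of that at 0 µM for the mitotic sum and 60.0% for the S-phase sum. The mitotic sum divided by the S-phase sum was 0.295, 0.444 and 0.396 at 1 µM, against 1.34, 1.89 and 1.59 at 0 µM. In the 16 vehicle libraries of all compounds this ratio ran from 1.17 to 1.89. Sums weigh members by their level. At 1 µM most of the S-phase sum came from Pcna, Prim1 and Mcm4, of which Prim1 rose and Mcm4 did not pass. The S-phase sum and the ratio thus do not stand for the typical S-phase member. The medians over members, given below, weigh each member alike. In these bulk samples, fewer dividing cells and less of these RNAs per cell cannot be told apart.

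**Figure D1:**
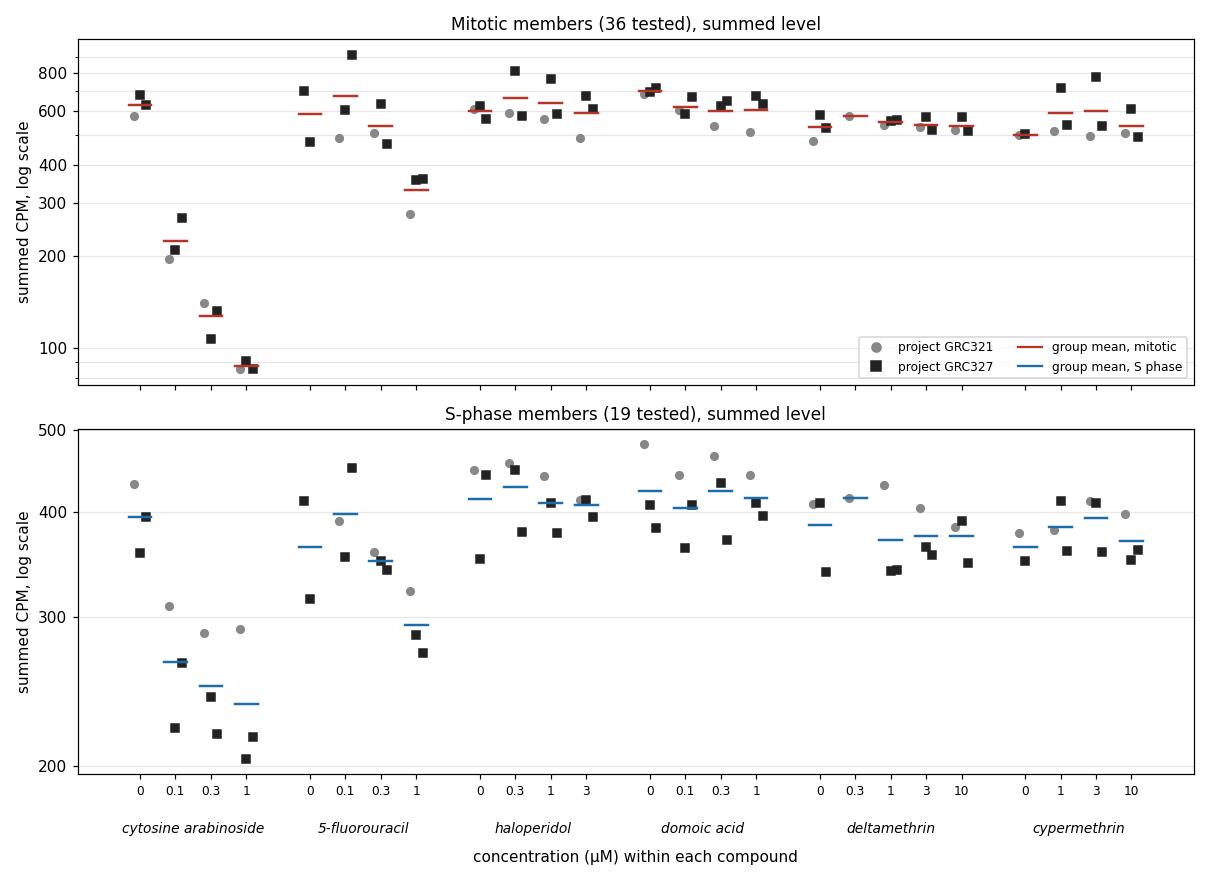
Summed CPM (log axes) of the 36 mitotic members (upper panel) and the 19 S-phase members (lower panel) in each of the 71 libraries, by compound and concentration, with grey circles for GRC321, black squares for GRC327 and a bar at the group mean. The cytosine arabinoside groups step down with concentration to 85.5 to 90.5 CPM in the mitotic panel. In the S-phase panel the groups at 0.1, 0.3 and 1 µM lie below vehicle but overlap (222 to 309, 218 to 287 and 204 to 290 CPM). The group means of 5-fluorouracil are lower at 1 µM than at 0 µM.

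At 1 µM cytosine arabinoside, 47 of the 58 members fell and 1 rose (edgeR quasi-likelihood test, adjusted over all genes tested, as for every adjusted p that follows). Over all genes tested 36% were called, 19.4% lower and 16.6% higher. Of the mitotic members 33 of 36 fell, with a median log2 change of −3.17 over the 36. Of the S-phase members 13 of 19 fell and 1 rose, with a median of −1.80, against a median of 0.03 over all genes tested. A fall of 8-fold or more in the fitted change was seen for 20 mitotic members and 5 S-phase members. In 47 members all 3 treated libraries lay below all 3 vehicle libraries, which held for 15.8% of all genes tested. Within GRC321, with 1 library a group, 55 members were lower, as were 49.5% of all genes. Within GRC327, with 2 a group, 51 members had both treated libraries below both vehicle libraries, as did 26.3% of all genes.

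Among the G2/M cyclins, kinases and regulators, 11 of 11 fell. Cdk1, the kinase that drives entry into mitosis, had 0.628, 1.46 and 0.407 CPM at 1 µM cytosine arabinoside, against 23.1, 21.96 and 31.4 CPM at 0 µM. This is a log2 change of −4.86 ± 0.33 (SE; adjusted p = 2.8e-17). Plk4, which starts centriole duplication, had 2.01, 2.61 and 5.16 CPM at 1 µM, against 18.8, 22.6 and 33.1 CPM at 0 µM, a log2 change of −2.90 ± 0.31 (adjusted p = 4.5e-11). In both genes the groups lay far apart. The cyclins of this set fell too, Ccna2 by 3.01 and Ccnb1 by 2.41 on the log2 scale. Of the Aurora and Polo kinases Aurkb fell by 3.25, Plk1 by 2.29 and Aurka, whose fall was the smallest of the set, by 1.41. The transcription factors Mybl2 (B-MYB) and Foxm1 fell by 3.58 and 1.75. Pbk, a mitotic kinase, had 0, 2 and 0 counts at 1 µM, against 106, 111 and 190 counts at 0 µM, so its level was 192-fold lower with a counting interval of 52.9 to 1590. Melk, also a mitotic kinase, had 1 count in all at 1 µM, against 177 at 0 µM, a ratio of 167 (29.6 to 6640). These ratios are scaled for library size, and their 95% intervals and the floor used below cover counting error only.

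Of the 11 kinetochore and spindle checkpoint genes, 9 fell. Cenpf, a large kinetochore protein of late G2, had 0.628, 2.06 and 1.76 CPM at 1 µM, against 28.9, 64.9 and 53.3 CPM at 0 µM, a log2 change of −5.00 ± 0.29 (adjusted p = 4.5e-20). Cenpe, the kinetochore motor, had 2.51, 4.07 and 3.26 CPM at 1 µM, against 11.7, 18.3 and 13.2 CPM at 0 µM, a log2 change of −2.13 ± 0.21 (adjusted p = 3.5e-12). No library at 1 µM reached the vehicle range for either gene. Sgo2, a protector of centromeric cohesion, had 1, 0 and 0 counts at 1 µM, against 138, 158 and 94 at 0 µM, a ratio of 369 (65.8 to 14600). Ttk (MPS1) and Bub1b (BUBR1), of the spindle checkpoint, fell by 4.46 and 4.19 on the log2 scale. Cenpa, the centromeric histone, Cdc20, the activator of the anaphase-promoting complex, Ndc80 and Nuf2, partners in the NDC80 complex, fell by 3.48, 3.40, 2.82 and 1.63. The checkpoint genes Bub1 and Mad2l1 did not pass, with log2 changes of −0.38 ± 0.24 and −0.42 ± 0.23 (adjusted p = 0.22 and 0.15). Bub1 had 8.04, 3.82 and 3.19 CPM at 1 µM, against 6.32, 5.90 and 5.98 CPM at 0 µM, so the GRC321 library was above the vehicle libraries and the other treated libraries below them. Without that library (1 µM replicate 1) both genes passed, Bub1 at −0.73 and Mad2l1 at −0.84 (adjusted p = 0.029 and 9.0e-03).

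Of 12 genes of the spindle and cytokinesis, 11 fell. Prc1, which bundles microtubules of the central spindle, had 2.64, 3.94 and 3.80 CPM at 1 µM, against 114, 67.1 and 62.6 CPM at 0 µM, a log2 change of −4.42 ± 0.31 (adjusted p = 4.3e-17). Kif11, the motor that separates spindle poles, had 2.51, 3.40 and 2.51 CPM at 1 µM, against 35.7, 44.5 and 47.6 CPM at 0 µM, a log2 change of −3.91 ± 0.21 (adjusted p = 2.1e-21). The treated libraries of both genes were close together and far below vehicle. Ect2, the cytokinetic activator of RhoA, the motors Kif2c and Kif4a, and the spindle factors Nusap1 and Tpx2 fell by 4.81, 4.24, 3.37, 3.67 and 3.09 on the log2 scale. Smaller falls were those of Anln (2.03), the kinesins Kif20a (0.96) and Kif23 (0.82), and Hmmr (0.74). The calls of Anln and Hmmr were lost without cytosine arabinoside 1 µM replicate 3 (adjusted p = 0.087 and 0.11), that of Hmmr also without 0 µM replicate 2 (adjusted p = 0.22), and that of Kif23 without 1 µM replicate 2 (adjusted p = 0.075). Birc5 (survivin) did not pass, at −1.003 ± 0.48 (adjusted p = 0.10), but passed without 0 µM replicate 1 (−1.33; adjusted p = 0.047).

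Both mitotic chromosome proteins fell, by very unequal amounts. Top2a, the topoisomerase that untangles replicated DNA, had 1.63, 1.76 and 0.339 CPM at 1 µM, against 75.2, 92.2 and 88.5 CPM at 0 µM, a 70.7-fold lower level (log2 change −6.14 ± 0.31; adjusted p = 1.6e-22). Mki67, the Ki-67 surface protein of mitotic chromosomes, had 7.54, 11.5 and 18.9 CPM at 1 µM, against 34.5, 45.7 and 38.8 CPM at 0 µM, a log2 change of −1.66 ± 0.21 (adjusted p = 4.5e-09). Neither gene overlapped with vehicle, and both had counts in every treated library.

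**Figure D2:**
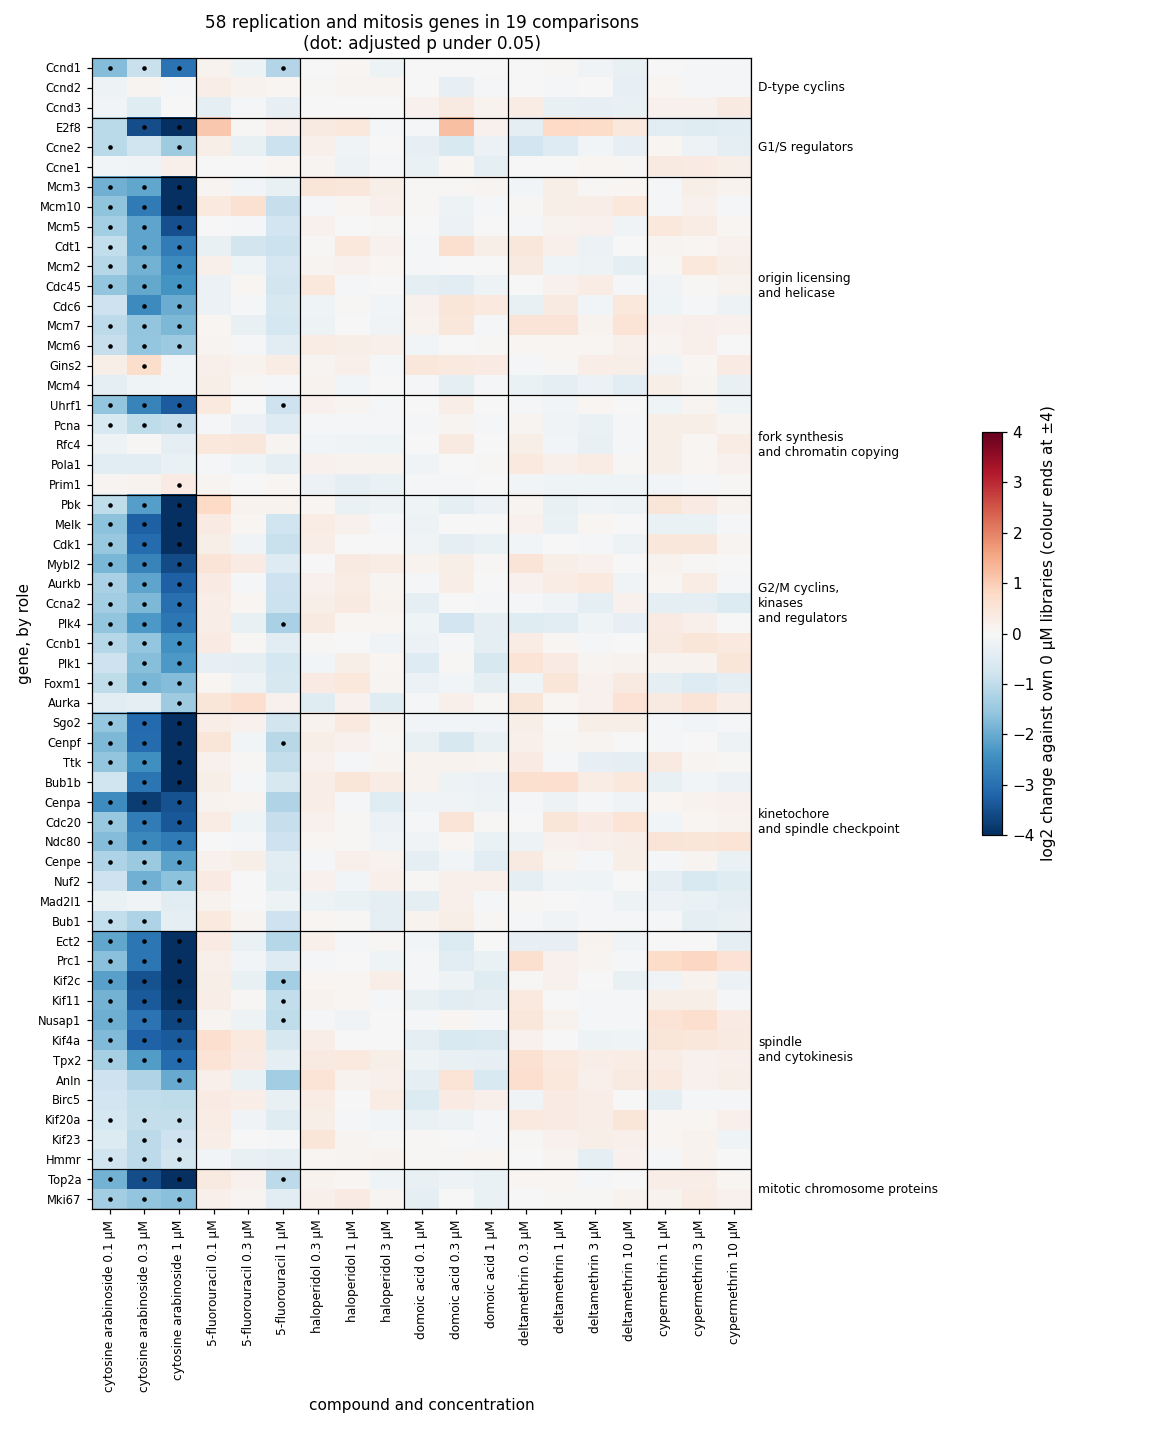
Log2 change of each of the 58 members (rows, grouped by role) over the compound's own 0 µM libraries in the 19 comparisons (columns), with colours that end at ±4 and a dot where the adjusted p was under 0.05. Dots fill most of the 3 cytosine arabinoside columns (40, 46 and 48 of 58), 8 stand at 5-fluorouracil 1 µM, and the other 15 columns hold none.

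The 5 S-phase members that did not pass at 1 µM cytosine arabinoside were Mcm4, Gins2, Pola1, Rfc4 and Ccne1, and the 1 that rose was Prim1. Of 11 genes of origin licensing and the helicase, 9 fell at 1 µM cytosine arabinoside. The MCM helicase is a ring of Mcm2 to Mcm7, and its measured subunits had unequal log2 changes. Mcm3 fell by 4.43 on the log2 scale, Mcm5 by 3.53, Mcm2 by 2.53, Mcm7 by 1.80 and Mcm6 by 1.44. Mcm6 had 13.9, 13.1 and 10.2 CPM at 1 µM, against 32.1, 36.1 and 32 CPM at 0 µM, with no overlap (SE 0.16; adjusted p = 1.1e-10). Mcm4 had 35.5, 23.9 and 47.7 CPM at 1 µM, against 36.9, 34.96 and 42.4 CPM at 0 µM, so the groups overlapped (log2 change −0.10 ± 0.18; adjusted p = 0.72). The loaders Cdt1 and Cdc6 fell by 2.79 and 1.97, and the helicase activators Mcm10 and Cdc45 by 4.23 and 2.41. Gins2, a GINS subunit of the active helicase, had a log2 change of −0.11 ± 0.19 at 1 µM (adjusted p = 0.71).

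Of 5 genes of fork synthesis and chromatin copying, 2 fell and 1 rose. Uhrf1, which carries DNA methylation over to the new strand, fell by 3.34 on the log2 scale and had 2.14, 2.19 and 1.63 CPM at 1 µM, against 17.7, 22.5 and 19.9 CPM at 0 µM. Pcna, the sliding clamp, had 56.1, 43.0 and 49.7 CPM at 1 µM, against 103, 78.1 and 99.2 CPM at 0 µM, a log2 change of −0.92 ± 0.19 (adjusted p = 1.1e-04). Both were below vehicle in each treated library. Prim1, the primase that starts new strands, had 92.6, 48.7 and 47.8 CPM at 1 µM, against 80.2, 36.4 and 37.9 CPM at 0 µM. Within each project its treated libraries were the higher ones, while the projects lay far apart (log2 change 0.32 ± 0.12; adjusted p = 0.03). That call was lost in 8 of 15 alternatives, with an adjusted p of up to 0.66, including without 0 µM replicate 2 or 3 or without 1 µM replicate 1 or 2. Pola1, the catalytic subunit of polymerase alpha, and Rfc4, of the clamp loader, did not pass, at −0.28 ± 0.17 and −0.36 ± 0.22 (adjusted p = 0.20 and 0.22). Pola1 had 10.9 to 14.1 CPM at 1 µM, against 14.2 to 15.9 CPM at 0 µM, so its groups did not overlap, and it passed against the 0 µM libraries of all compounds (−0.32; adjusted p = 0.047). Rfc4 stayed between −0.45 and −0.26 in all 15 alternatives.

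Of 3 G1/S regulators, 2 fell. Ccne2, a cyclin E, had 26.3, 4.73 and 7.67 CPM at 1 µM, against 29.1, 13.9 and 39.6 CPM at 0 µM, a log2 change of −1.43 ± 0.34 (adjusted p = 6.0e-04). Its pooled values overlapped, since the GRC321 libraries at both concentrations were among the high ones, and the call was lost without 0 µM replicate 3 (adjusted p up to 0.19). Ccne1, the other cyclin E, had 15.6, 18.7 and 9.50 CPM at 1 µM, against 16.5, 12.7 and 9.63 CPM at 0 µM, and did not pass (0.20 ± 0.17; adjusted p = 0.38). E2f8, a repressor of the E2F family, had no count in any library at 1 µM, against 4, 13 and 11 counts at 0 µM. With a floor of 3 counts over the group it was at least 8.82-fold lower, and with E2f8 at that bound the S-phase median stayed at −1.80.

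Of the D-type cyclins, 1 of 3 fell. Ccnd1, the cyclin most tied to growth factor signals, had 6.79, 6.07 and 4.95 CPM at 1 µM, against 49.2, 52.0 and 37.1 CPM at 0 µM, a log2 change of −2.97 ± 0.23 (adjusted p = 2.1e-15). Ccnd2, which cortical progenitors also use, had 79.7, 124 and 85.6 CPM at 1 µM, against 111, 99.5 and 95.2 CPM at 0 µM (−0.08 ± 0.14; adjusted p = 0.70). Ccnd3 had 7.92, 23.2 and 16.4 CPM at 1 µM, against 18.9, 14.2 and 14.8 CPM at 0 µM (0.01 ± 0.24; adjusted p = 0.97). The Ccnd1 groups were fully apart, and those of the other two overlapped.

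The size of the falls at the lower concentrations was also unequal between the classes. At 0.1 µM cytosine arabinoside 40 members fell and none rose, where 9.13% of all genes were called (6.75% lower, 2.38% higher), with 28 mitotic members (median −1.40), 11 S-phase members (median −0.99) and Ccnd1. At 0.3 µM 45 fell and 1 rose, where 17.6% were called (11.7% lower, 5.96% higher), with 32 mitotic members (median −2.28), 12 of S phase (median −1.57) and Ccnd1. The 1 that rose at 0.3 µM was Gins2 (0.71 ± 0.19; adjusted p = 6.2e-03), with 16.8, 41.4 and 27.8 CPM at 0.3 µM, against 18.04, 12.7 and 20.6 CPM at 0 µM, and its groups overlapped. This call was lost without 0 µM or 0.3 µM replicate 2 (adjusted p up to 0.21). Falls at all 3 concentrations were called for 38 members, of which 27 were mitotic, 10 of S phase and 1 was Ccnd1. The share of all genes called lower at all 3 was not recorded, but cannot exceed the 6.75% called lower at 0.1 µM. Between 0.1 and 0.3 µM 10 members fell further and 1 rose, where 2.31% of all genes were called. Between 0.3 and 1 µM 17 fell further (13 mitotic, 3 of S phase and Ccnd1) and 1 rose, where 14.3% were called.

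**Figure D3:**
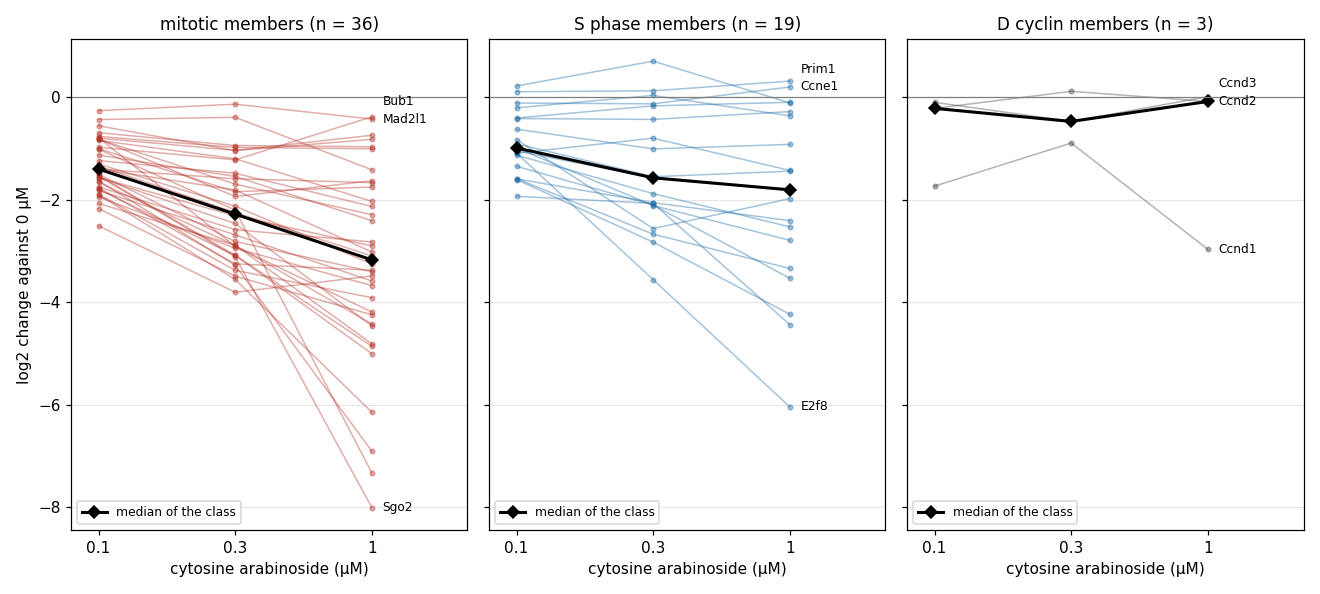
Log2 change against 0 µM of each member at 0.1, 0.3 and 1 µM cytosine arabinoside (steps drawn evenly spaced), by class, with the class median in black. The mitotic median runs from −1.40 to −3.17 and the S-phase median from −0.99 to −1.80, and the fitted values of Sgo2, Pbk, Melk and E2f8 at 1 µM rest on 0 to 2 counts.

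Single members followed different courses. Top2a had 75.2, 92.2 and 88.5 CPM at 0 µM, 19.2, 21.7 and 27.7 at 0.1 µM, 8.13, 3.83 and 9.41 at 0.3 µM, and 1.63, 1.76 and 0.339 at 1 µM. No library of one concentration overlapped with the next, and both steps between treated concentrations passed (−1.65 ± 0.26 and −2.59 ± 0.35; adjusted p = 2.1e-05 and 2.2e-07). Cdk1, Cenpf and Prc1 also fell at both steps. The first step of Prc1 was lost without 0.1 µM replicate 3 or 0.3 µM replicate 2 or 3 (adjusted p up to 0.097 among these), and the second step of Cdk1 without 0.3 µM replicate 1. In GRC327 alone the first step of Cenpf and the second steps of Cdk1 and Prc1 were lost. The first steps of Cenpf and Prc1 were lost without a project term, and that of Prc1 also against all 0 µM libraries. Mki67 had 34.5, 45.7 and 38.8 CPM at 0 µM, 12.1, 15.6 and 17.6 at 0.1 µM, 11.9, 12.8 and 14.7 at 0.3 µM, and 7.54, 11.5 and 18.9 at 1 µM. Its means were 39.7, 15.1, 13.1 and 12.6 CPM, and neither step between treated concentrations passed. Pcna had 80.2, 47.5 and 57.6 CPM at 0.1 µM and 56.0, 47.9 and 37.0 CPM at 0.3 µM, next to its 56.1, 43.0 and 49.7 CPM at 1 µM, and neither step passed. Ccnd1 had 49.2, 52.0 and 37.1 CPM at 0 µM, 13.6, 9.99 and 18.2 at 0.1 µM, 26.2, 16.2 and 31.8 at 0.3 µM, and 6.79, 6.07 and 4.95 at 1 µM. It was thus higher at 0.3 than at 0.1 µM (0.84 ± 0.22; adjusted p = 0.024) and lower at 1 than at 0.3 µM (−2.08 ± 0.24; adjusted p = 2.5e-09). The first of these calls was lost without 0.1 µM replicate 1 or 2 or 0.3 µM replicate 1 or 3 (adjusted p up to 0.34), and the second held in all 15 alternatives. The first was also lost in GRC327 alone, in a fit per compound and without a project term. Bub1 fell at 0.1 and 0.3 µM (−0.97 ± 0.26 and −1.22 ± 0.27; adjusted p = 8.1e-03 and 4.6e-04) and was higher at 1 than at 0.3 µM (0.84 ± 0.27; adjusted p = 0.028). That rise was lost without 1 µM replicate 1 or 0.3 µM replicate 1 or 2 (adjusted p up to 0.37), and the fall at 0.1 µM without 0.1 µM replicate 1 or 2 (up to 0.18). The rise of Bub1 was also lost in GRC327 alone, in a fit per compound and without a project term.

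**Figure D4:**
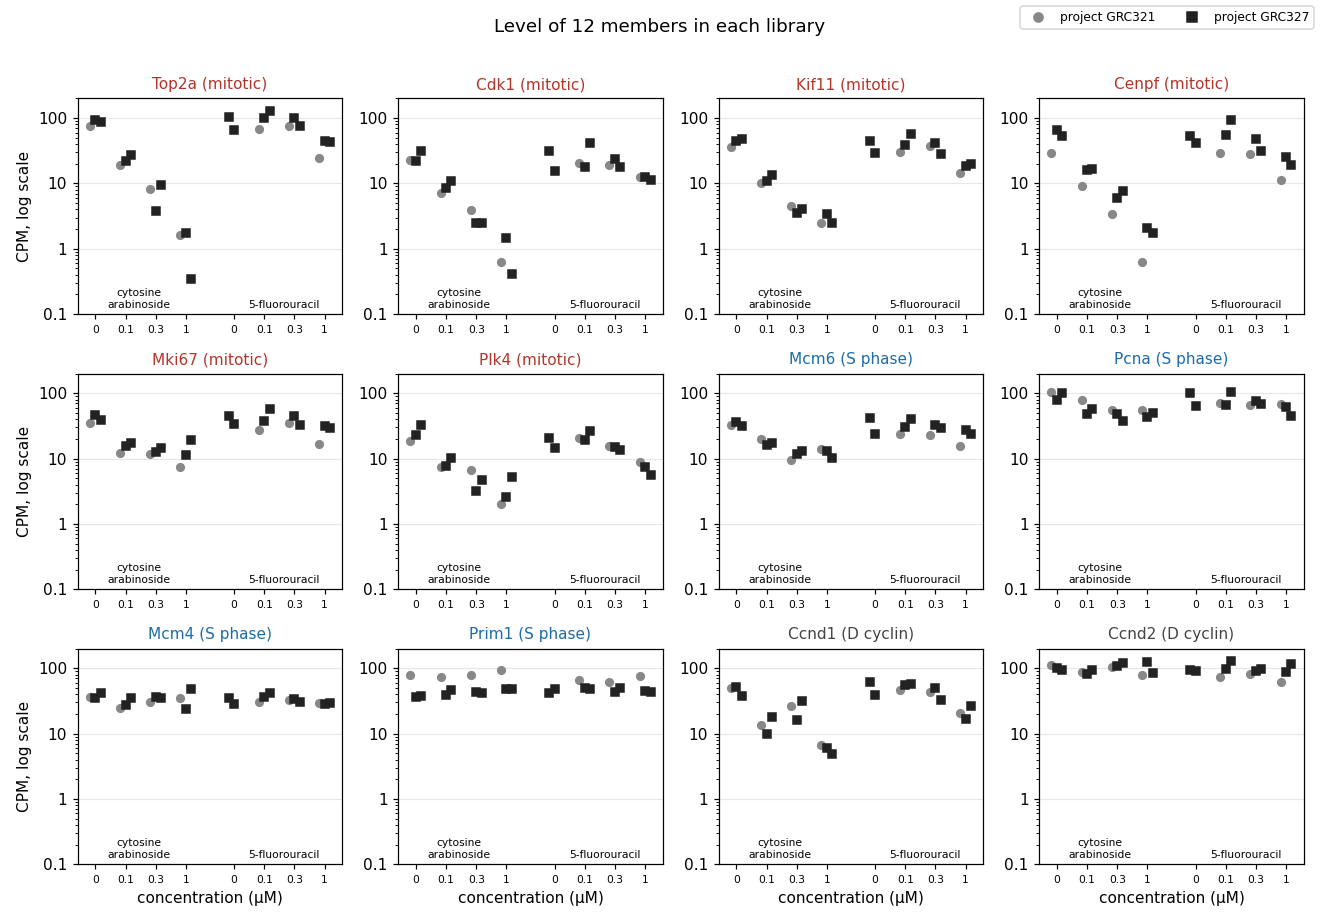
CPM (log axis) of 12 members in each library at 0, 0.1, 0.3 and 1 µM cytosine arabinoside (left in each panel) and 5-fluorouracil (right), with grey circles for GRC321 and black squares for GRC327. Top2a falls at every step of cytosine arabinoside, Ccnd1 is higher at 0.3 than at 0.1 µM, the 1 µM and 0 µM values of Mcm4 and Ccnd2 overlap, and the GRC321 circles of Prim1 lie above its GRC327 squares.

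Other genes of the same pathways, on lists chosen by textbook role, moved with the members at 1 µM cytosine arabinoside. The lists were chosen with earlier results of these data known. In this comparison 19.4% of all genes tested were called lower and 16.6% higher. Of 34 other replication genes 20 fell and none rose (median log2 change −0.77). Among these were Pole, the leading-strand polymerase (−1.95 ± 0.17), Timeless, of the fork protection complex (−2.10 ± 0.25), Brca1 (−1.84 ± 0.21) and Tk1, thymidine kinase (−2.11 ± 0.27). Of 45 other mitosis genes 37 fell and none rose (median −2.26). Among these were the kinesin Kif18b (−5.73 ± 0.44), the chromosome proteins Cdca2 (−5.10 ± 0.41) and Cdca3 (−4.07 ± 0.35), and the spindle protein Tacc3 (−2.55 ± 0.23). Of 25 brakes and partners of the cell cycle machine 22 were tested, 14 fell and 2 rose (median −0.70). Cdk2, the partner of cyclins E and A, fell by 5.59 ± 0.28 on the log2 scale, and Cdk6, partner of the D cyclins, by 2.86 ± 0.32. The inhibitor Cdkn2c (p18) fell by 3.98 ± 0.34 and Rbl1 (p107) by 2.43 ± 0.29. The 2 that rose, named after their values were seen, were the p53-inducible inhibitor Cdkn1a (0.79 ± 0.21; adjusted p = 1.8e-03) and the phosphatase Cdc25b (0.58 ± 0.23; adjusted p = 0.045).

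Markers of glia and progenitors moved with the members at 1 µM cytosine arabinoside, and their part in the members' changes was not tested. The 7 oligodendrocyte precursor markers summed to 5.22 to 16.9 CPM, against 814 to 1035 CPM at 0 µM, and 6 of 7 fell, with Sox10 and Gpr17 at or near 0. The 8 astrocyte markers summed to 186 to 221 CPM, against 2199 to 3284 CPM at 0 µM, and 8 of 8 fell. The progenitor markers summed to 91.4 to 129 CPM, against 1068 to 2701 CPM at 0 µM, and 7 of 9 tested fell. Of 5 tested vascular and fibroblast markers 3 fell, and these summed to 2.31 to 12.0 CPM, against 9.12 to 94.2 CPM at 0 µM. Of 4 tested ependymal and choroid plexus markers none passed, and the 1 tested erythroid marker, Ahsp, fell. Microglial markers summed to under 1.2 CPM in both groups. The 10 pan-neuronal markers summed to 8312 to 12477 CPM, against 9624 to 12738 CPM at 0 µM, with 1 rise (Syp, 0.41 ± 0.10) and 1 fall (Stmn2, −0.42 ± 0.14). Mitochondrial genes took 9.12% of the counts in 1 µM replicate 1, against 4.61% in the 0 µM library of the same project, and 3.66% and 3.79% in the other treated libraries, against 2.96% and 3.23%.

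Under 5-fluorouracil at 1 µM, 8 members fell and none rose, where 4.03% of all genes were called (3.34% lower). These were 6 mitotic genes, the S-phase gene Uhrf1 and Ccnd1. The medians were −0.72 over the mitotic members and −0.51 over the S-phase members, and 50 of the 58 changes were negative, against 49.0% of all genes. Since GRC321 holds no vehicle library of this compound, the changes rest on the 2 vehicle libraries of GRC327. The mitotic sum was 276, 356 and 359 CPM at 1 µM, against 697 and 476 CPM at 0 µM. The S-phase sum was 322, 286 and 272 CPM at 1 µM, against 412 and 316 CPM at 0 µM. It overlapped with vehicle only through the GRC321 treated library (322 CPM), which has no vehicle library of its own project. Within GRC327 the treated libraries lay below both vehicle libraries for both sums.

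Kif11 had 14.2, 18.2 and 19.9 CPM at 1 µM 5-fluorouracil, against 45.3 and 29.1 CPM at 0 µM (log2 change −0.9998 ± 0.20; adjusted p = 4.6e-04). Ccnd1 had 20.6, 16.9 and 26.9 CPM at 1 µM, against 60.8 and 38.7 CPM at 0 µM (−1.17 ± 0.23; adjusted p = 5.9e-04). Cenpf had 11.3, 25.4 and 19.4 CPM at 1 µM, against 53.3 and 42.2 CPM at 0 µM (−1.11 ± 0.25; adjusted p = 2.3e-03). In these 3 genes every treated library lay below both vehicle libraries. Top2a had 24.4, 45.0 and 42.8 CPM at 1 µM, against 105 and 65.9 CPM at 0 µM (−1.04 ± 0.24; adjusted p = 3.4e-03). Nusap1 had 4.45, 5.69 and 4.57 CPM at 1 µM, against 14.6 and 7.46 CPM at 0 µM (−1.02 ± 0.24; adjusted p = 5.5e-03). Plk4 had 9.00, 7.55 and 5.54 CPM at 1 µM, against 20.6 and 14.6 CPM at 0 µM (−1.30 ± 0.33; adjusted p = 9.0e-03). The same separation held for these genes. The remaining calls were Kif2c, the kinesin that takes apart microtubule ends (−1.35 ± 0.34; adjusted p = 9.5e-03), and Uhrf1 (−0.81 ± 0.24; adjusted p = 0.034). Of all 58 members 34 had every treated library below both vehicle libraries, as did 13.8% of all genes. That count sets the GRC321 treated library against vehicle libraries of GRC327. Within GRC327, 39 members had both treated libraries below both vehicle libraries, as did 23.5% of all genes.

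The count of calls at 1 µM 5-fluorouracil rested on the vehicle libraries. Without 0 µM replicate 1 no member passed, without 0 µM replicate 2 the count was 11, and without 1 µM replicate 3 it was 4. Set against the 0 µM libraries of all compounds, 34 members fell, and in a fit blocked on the 3 runs of library numbers 13 did. The share of all genes called in these fits was not recorded, so these counts have no background beside them. At 0.1 and 0.3 µM no member passed, with 4 and 2 members at an unadjusted p under 0.05 and none by DESeq2, where 0.00652% and 0.0456% of all genes were called. Beside the members, 3 of 34 other replication genes fell at 1 µM, where 3.34% of all genes were called lower. These were Timeless (−1.01 ± 0.25), Brca1 (−0.83 ± 0.23) and Pole (−0.62 ± 0.18). Of 45 other mitosis genes 5 fell, namely the kinesins Kif15 (−1.27 ± 0.23) and Kif18b (−1.18 ± 0.30), the condensin subunits Ncapd2 (−0.69 ± 0.16) and Ncaph (−1.29 ± 0.38), and Cdca2 (−1.07 ± 0.31). Of 22 tested brakes and partners 8 fell, with Cdk2 (−1.68 ± 0.22), Cdkn1c (−1.96 ± 0.29), E2f2 (−2.08 ± 0.46), Cdk6 (−1.47 ± 0.33), E2f7 (−1.46 ± 0.38), Cdkn2b (−1.85 ± 0.49), Rbl2 (−0.46 ± 0.13) and Cdk4 (−0.60 ± 0.17).

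The marker lists of glia also moved at 1 µM 5-fluorouracil, and their part in the members' changes was not tested. The oligodendrocyte precursor markers summed to 84.8 to 111 CPM, against 827 to 953 CPM at 0 µM, and 6 of 7 fell. The astrocyte markers summed to 1350 to 1991 CPM, against 2500 to 2598 CPM at 0 µM, and 4 of 8 fell. The progenitor markers summed to 556 to 699 CPM, against 1321 to 2343 CPM at 0 µM, and 4 of 9 tested fell. The pan-neuronal markers summed to 10317 to 16382 CPM, against 9080 to 9296 CPM at 0 µM, and none of 10 passed. The highest of these sums is that of the GRC321 treated library, which has no vehicle library of its own project. In the GRC327 treated libraries the sums were 10317 and 10912 CPM. Of the vascular, ependymal and erythroid markers tested none passed.

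The effects of cytosine arabinoside and 5-fluorouracil, each over its own vehicle, were compared directly at the 3 matched concentrations. At 1 µM 39 members were lower under cytosine arabinoside and none higher, where 12.9% of all genes were called. These were 28 of 36 mitotic members, 10 of 19 S-phase members and Ccnd1. At 0.3 µM 37 members were lower, where 5.89% were called, and at 0.1 µM 33, where 3.84% were called. The 5 largest differences at 1 µM were those of Pbk (−7.47 ± 0.75), Sgo2 (−7.27 ± 0.90), E2f8 (−6.25 ± 1.35), Melk (−6.11 ± 0.88) and Top2a (−5.10 ± 0.40), of which all but Top2a had at most 2 counts at 1 µM cytosine arabinoside. Of the genes called under 5-fluorouracil itself, the difference was −2.91 ± 0.29 for Kif11 and −1.79 ± 0.33 for Ccnd1. The 11 G2/M cyclins, kinases and regulators all differed.

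Differences that did not pass were narrow for some members. The interval of the difference at 1 µM ran from −0.56 to 0.54 for Mcm4, from −0.58 to 0.29 for Ccnd2, from −0.41 to 0.65 for Ccne1 and from −0.13 to 0.60 for Prim1 (95%, log2 scale). It was wider for Pcna, from −0.99 to 0.18, and for Bub1, from −0.29 to 1.17. Each leaves room for a difference of that size. At 0.1 µM the count of 33 fell to 14 without a project term, and to 15 without 5-fluorouracil 0 µM replicate 2. The share of all genes called in these fits was not recorded.

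**Figure D5:**
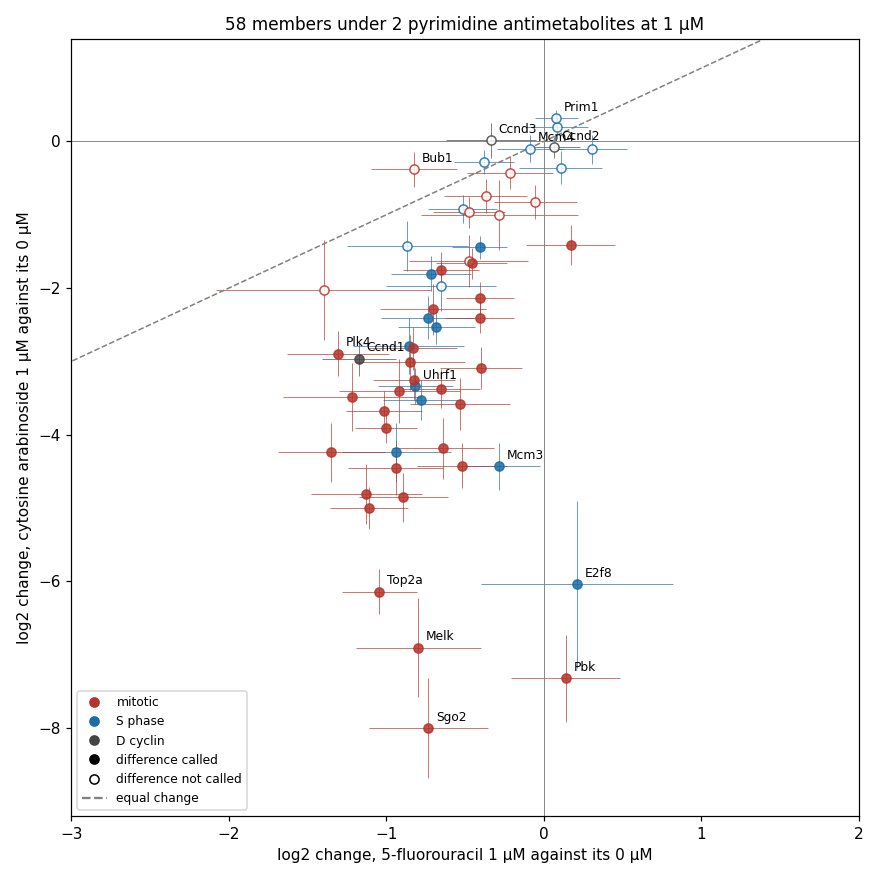
Log2 change of each of the 58 members at 1 µM cytosine arabinoside (vertical axis) against that at 1 µM 5-fluorouracil (horizontal axis), each over its own 0 µM libraries, with bars of 1 SE, filled points where the difference passed and a dashed line of equal change. Of the 58 points 39 are filled, and the lowest (Sgo2, Pbk, Melk, E2f8) rest on 0 to 2 counts under cytosine arabinoside.

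In the 13 comparisons of haloperidol, domoic acid, deltamethrin and cypermethrin no member passed. At an unadjusted p under 0.05 they held 0 to 9 members each, and DESeq2 called none. Deltamethrin at 0.3 µM is a single library, so its test borrows the spread of the other groups, and 32 of its 58 intervals lay within 1 on the log2 scale. Over all genes 1.51% were called at 0.3 µM domoic acid, 0.0261% at 3 µM haloperidol and 0% in the other 11. The mitotic sum ran from 490 to 809 CPM in the 9 haloperidol libraries, against 564 to 623 CPM at 0 µM, and from 517 to 579 CPM in the 10 deltamethrin libraries, against 478 to 581 CPM. It ran from 494 to 774 CPM in the 9 cypermethrin libraries, against 499 and 504 CPM at 0 µM, and from 511 to 670 CPM in the 9 domoic acid libraries, against 683 to 713 CPM at 0 µM. In domoic acid the treated libraries thus lay below their own vehicle libraries. They lay within the range of the 16 vehicle libraries of all compounds (476 to 713 CPM). The medians under domoic acid at 0.1, 0.3 and 1 µM were −0.16, −0.03 and −0.21 over the mitotic members. Over the S-phase members they were −0.07, 0.05 and −0.01.

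At 0.3 µM domoic acid the smallest p was that of Cenpf (−0.64 ± 0.21; adjusted p = 0.080), which passed without 0.3 µM replicate 1 or 3 (adjusted p = 0.034 and 0.028), and 6 members passed without the GRC321 treated library (replicate 1). The share of all genes called without that library was not recorded, so the count of 6 has no background beside it. At 3 µM haloperidol the smallest p was that of Prim1 (−0.28 ± 0.12; adjusted p = 0.91), at 10 µM deltamethrin that of Kif20a (0.49 ± 0.21; adjusted p = 0.96) and at 10 µM cypermethrin that of Prc1 (0.58 ± 0.29; adjusted p = 0.68). At 3 µM haloperidol the median log2 change was 0.05 over the mitotic and −0.01 over the S-phase members, and 54 of the 58 intervals lay within a 2-fold change either way, that is within 1 on the log2 scale. At 10 µM deltamethrin the medians were 0.00 and 0.02, with 51 intervals within 1, and at 10 µM cypermethrin they were −0.01 and 0.10, with 48. Deltamethrin, which carries bromine where cypermethrin carries chlorine, was compared with cypermethrin at 1, 3 and 10 µM. No member differed (unadjusted p under 0.05 for 3, 2 and 2 members, none by DESeq2, 0% of all genes called). The median half-width of these 95% intervals was 0.70, 0.72 and 0.71 on the log2 scale, and 26 of 58 intervals lay within 1 at each concentration.

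The members also varied among vehicle libraries. Over the 11 vehicle libraries of GRC327 the coefficient of variation of the members' CPM had a median of 19.9%, from 4.66% to 45.0%. Between the projects, Mad2l1 was higher in all 5 GRC321 vehicle libraries, at 12.96 to 24.6 CPM, against 5.52 to 10.0 CPM in GRC327. Cdc45 was lower, at 1.83 to 3.85 CPM, against 5.23 to 9.06 CPM in GRC327, and Ect2 was lower, at 15.4 to 22.1 CPM, against 28.7 to 51.2 CPM. Of the 58 members 1 lay wholly above and 3 wholly below GRC327 in GRC321, against 11.6% and 10.8% of all genes. Whether the projects differ in culture, library or sequencing was not given. The library numbers in the titles form 3 runs, GRC321 and a lower and a higher run in GRC327. Outside cytosine arabinoside the vascular and fibroblast markers summed to 7.59 to 15.7 CPM in GRC321, 12.2 to 35.2 CPM in the lower GRC327 run and 56.3 to 123 CPM in the higher one, while the mitotic sums of the 3 runs overlapped (276 to 683, 356 to 809 and 359 to 919 CPM). Ccne2, Ccna2, Plk4, Sgo2 and Kif20a overlap a gene on the other strand (Ints8, Exosc9, Mfsd8, Kctd18 and Cdc23), and since strandedness was not given, their counts may share reads with it.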

How the data were processed

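RNA of 71 samples of rat cortical cultures was polyA-selected and sequenced. The authors' deposited table holds expected counts per gene, which were read from the values, since 20.6% are not whole (tolerance 1e-06). Partek and STAR are named in the submitters' processing notes, and their versions and roles, the genome build and the strandedness were not given in the sources used here. The authors' deposited normalized table was not used.

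The counts were rounded and fitted in R 4.3.3 with edgeR 4.0.16 (TMM scaling, low genes removed by filterByExpr on the groups at its minimum count of 10, quasi-likelihood test). One model held all 71 libraries, with a coefficient for each group, a project term within each compound, and 40 residual degrees of freedom. TMM factors ran from 0.875 to 1.15. A gene was called at an adjusted p below 0.05 (Benjamini-Hochberg over 15343 genes), and tests were 2-sided. CPM values are scaled by TMM, depth ran from 5.2 M to 43.1 M counts, and intervals on counts cover counting error only. The script was tested on simulated data. The comparisons were 19 of a concentration with its own 0 µM libraries, 2 steps of cytosine arabinoside, and 6 differences between compounds. Alternatives were DESeq2 1.42.0, its size factors, other filters, other project terms, GRC327 alone, other controls, a fit per compound and leaving out each library.

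Members, lists and markers were chosen with earlier results of these data known. Named with values in every library are the 2 members of each role with the highest mean CPM, the 3 D cyclins and the 6 with the smallest p under 5-fluorouracil 1 µM. Others named are the members not called, those with the largest and smallest changes, any called in a second compound, the 5 largest differences, and from each pathway list the 4 smallest p and any called under 5-fluorouracil. Printed promoters were those of such members that held the motif before the start, up to 3 a class in order of mean CPM. Cdk1, with 2 E2F, 2 CHR and 3 CCAAT motifs before the start, came after the 3 mitotic members printed.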

Additional observations from a re-analysis of the deposited data

Results flagged for a closer look

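The response of the members differed between cytosine arabinoside and 5-fluorouracil when the difference itself was tested. It passed for 33 members at 0.1 µM, 37 at 0.3 µM and 39 at 1 µM, all lower under cytosine arabinoside. Groups of 3 libraries or fewer are too small for the test of single outlying libraries.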

How the results depend on the processing

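The labels give no replicate numbers, but the library numbers form 3 runs, and a fit blocked on these runs within each compound, chosen after seeing the data, gave 40, 46 and 48 calls at 0.1, 0.3 and 1 µM cytosine arabinoside, 34, 38 and 40 for the differences from 5-fluorouracil, 13 at 1 µM 5-fluorouracil (8 as reported) and 1 at 0.3 µM domoic acid (0 as reported). No called change of a member turned its sign under any alternative run. Of members named but not called, log2 changes at 1 µM cytosine arabinoside spanned 0 when single libraries were left out, from −0.30 to 0.055 for Ccnd2, −0.35 to 0.42 for Ccnd3, −0.14 to 0.41 for Ccne1, −0.34 to 0.072 for Gins2 and −0.36 to 0.16 for Mcm4. Ccnd2 was also at 0.11 in GRC327 alone, and Prc1 at 10 µM cypermethrin at −0.20 against all 0 µM libraries. Birc5, Bub1 and Mad2l1 at 1 µM cytosine arabinoside passed in GRC327 alone and against all 0 µM libraries. Of the called members 43 of 48 at 1 µM cytosine arabinoside, 42 of 46 at 0.3 µM, 24 of 40 at 0.1 µM and 0 of 8 at 1 µM 5-fluorouracil passed in every alternative. Leaving out single libraries gave 31 to 38 calls at 0.1 µM cytosine arabinoside, 44 to 48 at 0.3 µM, 46 to 49 at 1 µM, 7 to 12 for 0.3 against 0.1 µM, 10 to 19 for 1 against 0.3 µM, 0 to 11 at 1 µM 5-fluorouracil and 0 to 6 at 0.3 µM domoic acid. It gave 15 to 35, 33 to 42 and 31 to 41 calls for the difference of cytosine arabinoside and 5-fluorouracil at 0.1, 0.3 and 1 µM, and 0 in every other comparison. Counts moved by over 1.5 times as follows. Without a project term they were 5 at 1 µM 5-fluorouracil, 6 for 0.3 against 0.1 µM and 14 for the difference at 0.1 µM. In GRC327 alone they were 7 and 10 for the 2 steps and 2 at 0.3 µM domoic acid. Fitted per compound they were 5 and 10 for the steps and 17 for the difference at 0.1 µM. Against all 0 µM libraries they were 34 at 1 µM 5-fluorouracil and 2 at 0.3 µM domoic acid. The cause of these shifts was not tested, and the share of all genes called under each alternative was not recorded. With a shorter E2F core (TCGCGC or TGGCGC) 13 S-phase (86.7%) and 10 mitotic members (33.3%) matched, against 19.6% of all genes with a window. Counts of 0 to 3 limit Sgo2, Pbk, Melk and E2f8 at 1 µM cytosine arabinoside.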
